A study of Callithrix jacchus with 54 samples.

Results

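Primordial germ cell-like cells sorted 6 days after common marmoset embryonic stem cells (cjESCs) were placed in germ cell-inducing medium were compared with the cjESCs they came from, gene by gene across the transcriptome. The comparison was set by sample labels alone: the 2 day 6 libraries against the 2 libraries of cjESCs in PESFA medium, 4 of the 54 RNA-seq libraries of the study. Primordial germ cells (PGCs) are the founders of eggs and sperm, a lineage that separates from the somatic tissues early in life. In primates their specification rests on the transcription factors SOX17, PRDM1 (BLIMP1) and TFAP2C. The new germ cells keep part of the pluripotency network, shut off SOX2, block somatic programs and then begin to erase DNA methylation.

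All cells on this route came from the established line CMES40, with no transgene in the genotype label, cultured on irradiated mouse embryonic fibroblasts in primate ESC medium with bFGF and activin A (PESFA). The starting cells were sorted as TRA-1-60(+). The pre-treated cells (Pre) had spent 1 day on fibronectin with the WNT agonist IM12, activin A and a ROCK inhibitor, and were also sorted as TRA-1-60(+). The cells then formed aggregates in BMP4, LIF, SCF, EGF, ROCK inhibitor and the WNT inhibitor IWR1 (BLSE with IWR1), and after 6 days the tdTomato(+) cells were sorted as cjPGCLCs. The tdTomato reported BLIMP1 and an eGFP reported NANOS3, both joined through p2A to the end of the coding sequence by CRISPR-Cas9 knock-in. Libraries taken at 12, 24, 48 and 96 h of the same route, and after 20, 40 and 70 days with mouse ovarian cells in reconstituted ovaries, give levels along the way. For comparison serve cjESCs kept in DK20FA medium, which carry inducible BLIMP1, SOX17-GR and TFAP2C transgenes, with their cells after 96 h in BLSE alone (all cells) and after 96 h in BLSE with SOX17 switched on (tdTomato(+) cells). The replicates were biological duplicates.

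Guides that direct Cas9 to the 2 reporter sites show where the insertions were aimed, and the share of PRDM1 and NANOS3 reads from an inserted allele was not measured. Capitals mark the 20 guide bases of each designed oligo.
BLIMP1: caccGCAGATCTGATGACTCGTAA
NANOS3: caccgCCAGCTTGAGCTCGATCCCT

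Levels are in TPM (transcript abundance scaled to a fixed total), differences are day 6 minus cjESC on log2(TPM + 1), and adjusted p-values are from limma with the Benjamini-Hochberg method over 11197 genes. The label was first checked against 4 markers. NANOS3, an RNA-binding protein that keeps germ cells from dying, stood at 1.85 and 0.95 TPM in the cjESC libraries and at 394 and 487 TPM at day 6 (difference 7.54, adjusted p = 2.07e-21). SOX17, the factor that starts the germ cell program in primates, went from 7.22 and 7.49 TPM to 617 and 708 TPM (difference 6.31, adjusted p = 1.18e-19). For both genes each day 6 library lay far above each cjESC library, and no gene with a symbol rose more than NANOS3. SOX2, a core factor of the pluripotent and neural states, dropped out, from 235 and 232 TPM to 0 and 0.74 TPM (difference -7.47, adjusted p = 1.14e-21). The surface sialoglycoprotein gene PDPN was already high in cjESCs, at 682 and 654 TPM, and reached 1064 and 1037 TPM (difference 0.65, adjusted p = 7.22e-05). Thus 3 of the markers separated the groups by more than 4-fold, and PDPN rose by less than that from a high start. In bulk libraries, fewer cells of a type and less RNA per cell cannot be told apart.

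A gene was called differentially expressed (DEG) when it changed more than 4-fold at an adjusted p under 0.01 with a mean log2(TPM + 1) above 1.5. Of the genes tested 895 (7.99%) met this rule, 344 (3.07%) higher and 551 (4.92%) lower at day 6. Without the fold threshold 5030 genes (44.9%) changed at an adjusted p under 0.01, 2793 (24.9%) upward and 2237 (20.0%) downward. The genes gained had a median difference of 2.60 and the genes lost one of -3.00, beside 0.107 for all genes tested. Large losses outnumbered large gains: 124 of the genes lost and 40 of the genes gained changed more than 16-fold, and 26 and 5 changed more than 64-fold. The genes lost summed to 60996 TPM in cjESCs and 6236 TPM at day 6, while the genes gained went from 5468 to 41713 TPM. The 2 groups of libraries did not overlap for 8554 of all genes tested, so a lack of overlap at a single gene says little by itself. At day 6 37 of the lost genes were listed at 0 TPM in both libraries, and 7 of the gained genes were listed at 0 in both cjESC libraries. Of all 11197 genes tested 418 were at 0 in both day 6 libraries and 286 in both cjESC libraries. With median-ratio scaling the median of all genes moved from 0.107 to -0.0573 and the DEGs split into 276 higher and 648 lower, so that the share gained was 29.9% instead of 38.4%.

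**Figure D1:**
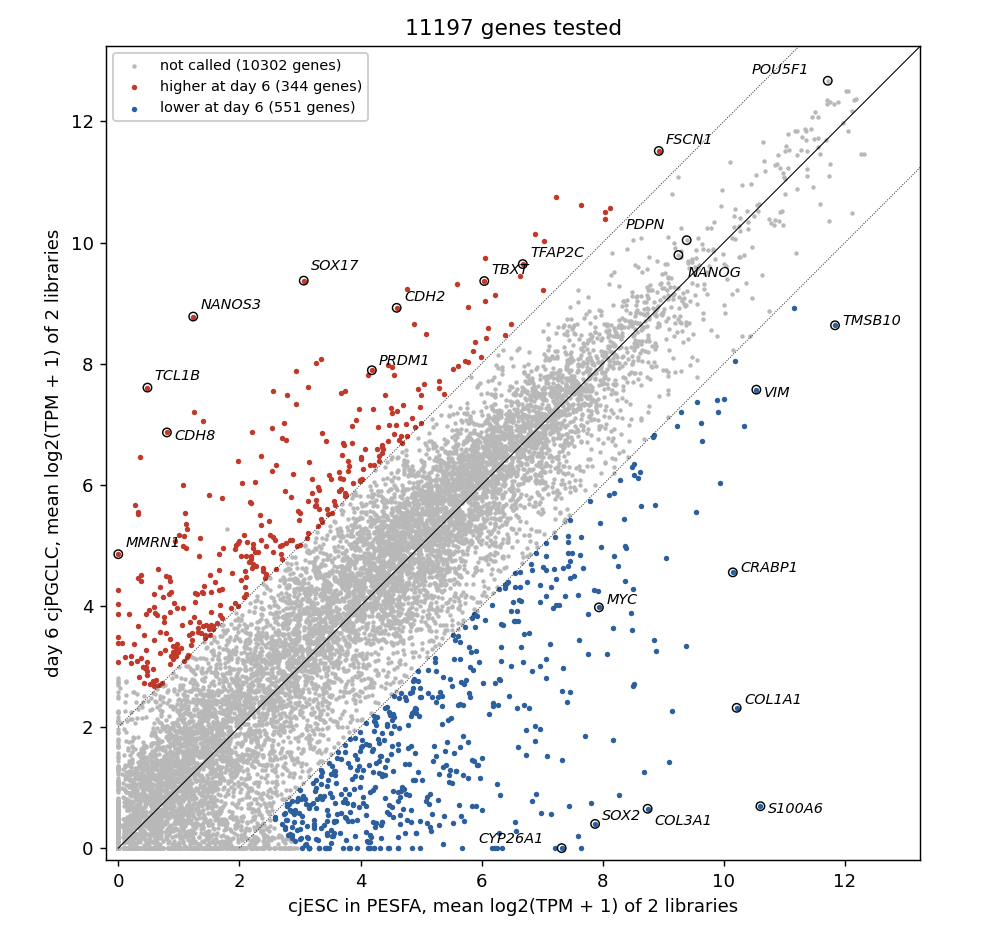
Mean level of each of the 11197 genes tested in cjESCs and in day 6 cjPGCLCs, with the 344 genes gained in red and the 551 lost in blue. Dotted lines mark a 4-fold difference.

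The core specification factors rose together. PRDM1, the repressor that blocks somatic genes in germ cell precursors and the gene behind the tdTomato gate, was at 19.9 and 14.8 TPM in cjESCs and 221 and 253 TPM at day 6 (difference 3.70, adjusted p = 4.58e-17). Only the day 6 cells were sorted for this reporter, so a higher PRDM1 level was selected for and its p-value is no independent support. TFAP2C, which acts beside PRDM1, was at 107 and 96.0 TPM and then at 770.1 and 829 TPM (difference 2.96, adjusted p = 4.73e-16). DND1, an RNA-binding protein that germ cells need to survive, reached 351 and 368 TPM from 42.2 and 25.6 TPM (difference 3.41, adjusted p = 5.49e-14). TCL1B and TCL1A, neighbouring genes for co-activators of AKT kinase, were near silent before: TCL1B was at 0 and 0.95 TPM and rose to 208 and 180.2 TPM (difference 7.12, adjusted p = 4.44e-17). TCL1A rose from 1.3 and 0.90 TPM to 63.7 and 61.7 TPM (difference 4.93, adjusted p = 1.49e-12). KIT, the receptor for the SCF in the medium, was listed at 0 in both cjESC libraries and at 5.16 and 3.99 TPM at day 6 (adjusted p = 1.17e-12), too low a mean level for the DEG rule.

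In a list of genes of PGC specification and early PGCs, 24 were tested, 7 were DEGs upward and 1 downward, and 11 rose and 7 fell at an adjusted p under 0.01. Its median difference was 0.58 beside 0.107 for all genes. Of all genes tested 3.07% were DEGs upward and 4.92% downward, and 24.9% rose and 20.0% fell. Counts in this and the later lists are to be read beside these shares. The 1 called lower was PIM1, a kinase gene downstream of STAT3, at 178 and 173 TPM before and 26.7 and 24.8 TPM after (difference -2.72, adjusted p = 2.79e-16). PRDM14, a regulator that mouse PGCs require, also went down, from 313 and 266 TPM to 68.4 and 76.6 TPM (difference -1.98, adjusted p = 8.16e-09), close to the 4-fold threshold.

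**Figure D2:**
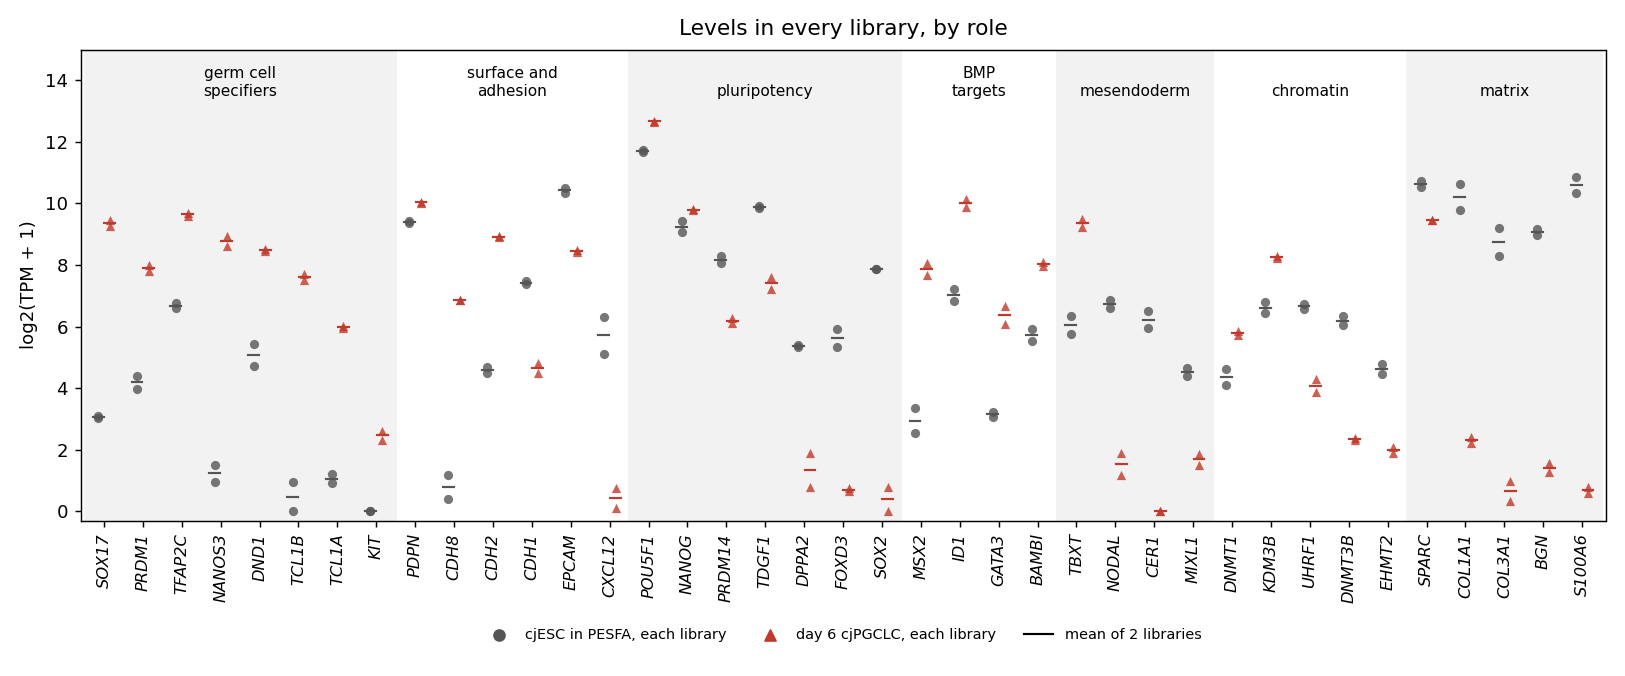
Level of genes with known roles in each of the 2 cjESC and 2 day 6 libraries. NANOS3 rose to 394 and 487 TPM and SOX2 fell to 0 and 0.74 TPM at day 6.

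Among the other genes with the largest rises were further regulators and surface proteins. PRDM13, a zinc finger factor known from the developing nervous system, was at 0.28 and 0.29 TPM in cjESCs and 74.4 and 103 TPM at day 6 (difference 6.10, adjusted p = 1.80e-19). CDH8, a classical type II cadherin, went from 1.29 and 0.33 TPM to 115 and 116 TPM (difference 6.06, adjusted p = 7.19e-20). LONRF3, a RING finger protein gene, stood at 0.70 and 2.36 TPM and then at 139 and 154 TPM (difference 5.94, adjusted p = 7.55e-20). All 3 were close to silent in cjESCs and well expressed in both day 6 libraries. NGFR, the low-affinity neurotrophin receptor, rose from 1.47 and 1.82 TPM to 121 and 145 TPM (difference 5.66, adjusted p = 8.32e-19). HHIP, which binds hedgehog ligands and damps their signal, rose from 0.16 and 0.26 TPM to 47.3 and 52.3 TPM (difference 5.39, adjusted p = 7.10e-20). Next in size were the paraneoplastic antigen family gene PNMA3 (difference 5.23), the collagen VI chain gene COL6A6 (5.19), MSX2 (4.94) and the serine protease gene PRSS16, which rose from 6.51 and 3.57 TPM to 169 and 206 TPM (adjusted p = 2.08e-19). SAMD11 rose by 4.75, and MMRN1, for the secreted protein multimerin, was listed at 0 in cjESCs and at 26.7 and 29.2 TPM at day 6 (adjusted p = 9.38e-21).

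Measured by level, 90 of the 344 genes gained exceeded 100 TPM at day 6. The most abundant were chosen for mention after their values were seen, as were several list members named below. First was FSCN1, an actin-bundling protein gene, at 480 and 491 TPM in cjESCs and 2850.3 and 2993 TPM at day 6 (difference 2.59, adjusted p = 7.91e-17). CAPN6, a calpain family gene, followed at 1731 and 1718 TPM after 156 and 141 TPM (difference 3.53, adjusted p = 6.55e-18). QDPR came next, at 1559 and 1581 TPM at day 6. GPX4, whose enzyme removes lipid peroxides, reached 1535 and 1511 TPM from 297 and 260 TPM (difference 2.45, adjusted p = 2.89e-20). After 96 h in BLSE with SOX17 switched on, against DK20FA cjESCs, FSCN1 rose by only 0.46 and was not a DEG. There CAPN6 rose by 2.57, QDPR by 1.75 and GPX4 by 1.43, and of these CAPN6 alone was a DEG.

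The pluripotency network was kept in part. POU5F1, its central factor, was among the highest genes in both states, at 3429 and 3297 TPM in cjESCs and 6448 and 6598 TPM at day 6 (difference 0.96, adjusted p = 1.46e-10). NANOG was at 692 and 534 TPM and then at 899.6 and 874 TPM (difference 0.54, adjusted p = 0.00743), and this call was lost under several alternatives, among them without cjESC replicate 2 (difference 0.36, adjusted p = 0.162). NANOG was high in both groups. In the core pluripotency list 15 genes were tested, 4 were DEGs downward and none upward, 4 rose and 9 fell at an adjusted p under 0.01, and the median was -1.02. Beside SOX2 the DEGs were FOXD3, a factor of the epiblast and neural crest, which fell from 59.5 and 39.6 TPM to 0.68 and 0.58 TPM (difference -4.93, adjusted p = 9.54e-14), and the epigenetic co-regulator gene DPPA2 (difference -4.02). The last was TDGF1, the NODAL co-receptor, which fell from 923 and 961 TPM to 194 and 147 TPM (difference -2.47, adjusted p = 9.42e-15). With median-ratio scaling 2 rose and 9 fell, and 5 were DEGs downward. Changes at an adjusted p under 0.01 thus ran in both directions in this list, while its DEGs were all downward.

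Of 15 naive pluripotency genes tested, 1 was a DEG upward (TFAP2C) and none downward, 3 rose and 8 fell, and the median was -0.81. From DK20FA cjESCs 2 were DEGs upward and 1 downward, 4 rose and 6 fell, and the median was -0.38. PRDM14 fell most among them, ahead of the Krüppel-like factor gene KLF17, at 23.6 and 28.8 TPM before and 5.88 and 6.48 TPM after (difference -1.92, adjusted p = 3.39e-04). Primed pluripotency and neural factors had a median of -1.47 over 22 genes, with 2 DEGs upward and 9 downward, and 5 rose and 13 fell (median -0.64, 3 rising and 10 falling from DK20FA cjESCs). After SOX2 the largest fall was that of DUSP6, a phosphatase that is induced by and limits ERK activity, from 36.5 and 103 TPM to 1.65 and 0.90 TPM (difference -4.80, and -5.54 and -4.06 without cjESC replicates 1 and 2). ZIC2 and ZIC5, zinc finger factors of the primed epiblast and neural plate, fell by 4.72 and 3.80. The homeobox gene EN2 moved the other way, from 0 in both cjESC libraries to 12.4 and 14.8 TPM (adjusted p = 5.53e-11).

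BMP4 was supplied in the medium, and many genes of its pathway rose. In the list of BMP targets and amnion-like factors 25 genes were tested, 9 were DEGs upward and 3 downward, 15 rose, 4 fell and 6 did not pass, and the median of 1.29 was the highest of the 26 lists. MSX2, a homeobox gene that BMP induces directly, was at 9.14 and 4.83 TPM in cjESCs and 205 and 268 TPM at day 6 (adjusted p = 1.18e-19). ID1, an inhibitor of bHLH factors, rose from 149.6 and 114 TPM to 955 and 1126 TPM (difference 2.98, adjusted p = 3.04e-16). Among inhibitors of the pathway BAMBI, a decoy receptor, rose by 2.31 and SMAD6 by 2.27, while NOG, a secreted antagonist, fell by 3.19. SMAD9 rose by 3.15. GATA3, which also marks amnion and trophoblast, rose from 8.33 and 7.41 TPM to 66.6 and 102 TPM (difference 3.23, adjusted p = 3.09e-12), whereas HAND1 at 46.6 and 24.3 TPM before and 38.1 and 66.5 TPM after did not pass (adjusted p = 0.129). With DK20FA cjESCs as the start HAND1 fell instead, with the values given in the closing section. BMP2 fell from 12.2 and 34.4 TPM to 0.40 and 0.64 TPM (difference -3.84, and -4.55 and -3.13 without cjESC replicates 1 and 2).

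WNT genes had a median of -1.24 over 25 genes, with 3 DEGs upward and 7 downward, and 3 rose and 12 fell. SFRP1, a secreted antagonist of WNT, fell most, from 313 and 422 TPM to 5.82 and 5.35 TPM (difference -5.79, adjusted p = 2.90e-19). The 3 that rose all encode negative regulators of the pathway. Other antagonists fell beside SFRP1, among them SFRP2 by 3.37 and DKK1 by 3.21. NKD1 went from 0.60 and 1.41 TPM to 15.1 and 14.1 TPM (difference 2.99, adjusted p = 9.49e-13), NOTUM, which removes the lipid from WNT ligands, rose by 2.98, and RNF43, which clears WNT receptors, by 2.37. From DK20FA cjESCs only 1 WNT gene was a DEG upward and 10 were downward, with a median of -1.77, and NKD1 started there from 3.72 and 2.28 TPM and RNF43 from 6.80 and 14.0 TPM.

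Genes of the NODAL and activin axis moved both ways. Of 13 genes tested 1 was a DEG upward and 5 downward, 4 rose and 6 fell, and the median was -0.69 (2 rising and 7 falling with median-ratio scaling, 3 and 7 with a median of -1.50 from DK20FA cjESCs). NODAL itself fell from 116 and 96.8 TPM to 2.72 and 1.29 TPM (difference -5.19, adjusted p = 1.91e-13). INHBA, the activin A subunit, differed widely between the cjESC libraries, at 43.7 and 490.2 TPM, and was listed at 0 in both day 6 libraries (adjusted p = 3.20e-13). Its difference of -7.21 became -5.48 without cjESC replicate 2 and -8.94 without replicate 1, and a fit of only the 4 libraries did not call it (adjusted p = 0.0165). The inhibitor gene FST fell by 4.39. The receptor gene ACVR1B went the other way, from 21.7 and 20.0 TPM to 263 and 241 TPM (difference 3.53, adjusted p = 4.87e-19), and was not a DEG from DK20FA cjESCs, where it was at 54.4 and 72.2 TPM.

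For FGF ligands and ERK feedback 21 genes had a median of -0.48 (0.17 with DK20FA cjESCs as the start), with none called a DEG upward (2 from DK20FA cjESCs) and 4 downward, and 7 rose and 7 fell. SPRY2, a feedback inhibitor, fell most, from 33.5 and 43.6 TPM to 0 and 0.71 TPM (difference -4.91, adjusted p = 4.46e-16), and the ligand FGF8 fell by 4.68. The ETS factor gene ETV5 rose from 49.3 and 55.7 TPM to 139 and 128 TPM (difference 1.33, adjusted p = 8.75e-05). LIF, STAT3 and PIM genes had a median of 0.42 over 15 genes, with 1 DEG in each direction and 3 rising and 3 falling. Here the 2 kinase genes PIM1 and PIM2 parted: PIM2 rose from 89.3 and 88.9 TPM to 400.2 and 408 TPM (difference 2.17, adjusted p = 4.67e-11). With median-ratio scaling the difference was 1.95 and PIM2 was not a DEG.

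Retinoic acid genes had a median of -0.32 over 17 genes (0.12 with DK20FA cjESCs as the start), with 1 DEG upward and 4 downward, and 5 rose and 7 fell. CYP26A1, the enzyme that degrades retinoic acid and is itself induced by it, was at 185 and 136 TPM in cjESCs and listed at 0 in both day 6 libraries (difference -7.32, adjusted p = 6.80e-18). CRABP1, a cytoplasmic carrier of retinoic acid, fell from 758 and 1696 TPM to 20.5 and 24.7 TPM (difference -5.59, adjusted p = 1.46e-15). After 96 h in BLSE with SOX17 switched on, against DK20FA cjESCs, CRABP1 did not pass (difference -0.24, adjusted p = 0.596). These 2 changes differed by -5.35 (adjusted p = 1.07e-09). RARB, a receptor gene, rose to 7.10 and 8.47 TPM from 1.65 and 0.31 TPM (difference 2.23, adjusted p = 2.15e-07), and was not a DEG from DK20FA cjESCs.

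**Figure D3:**
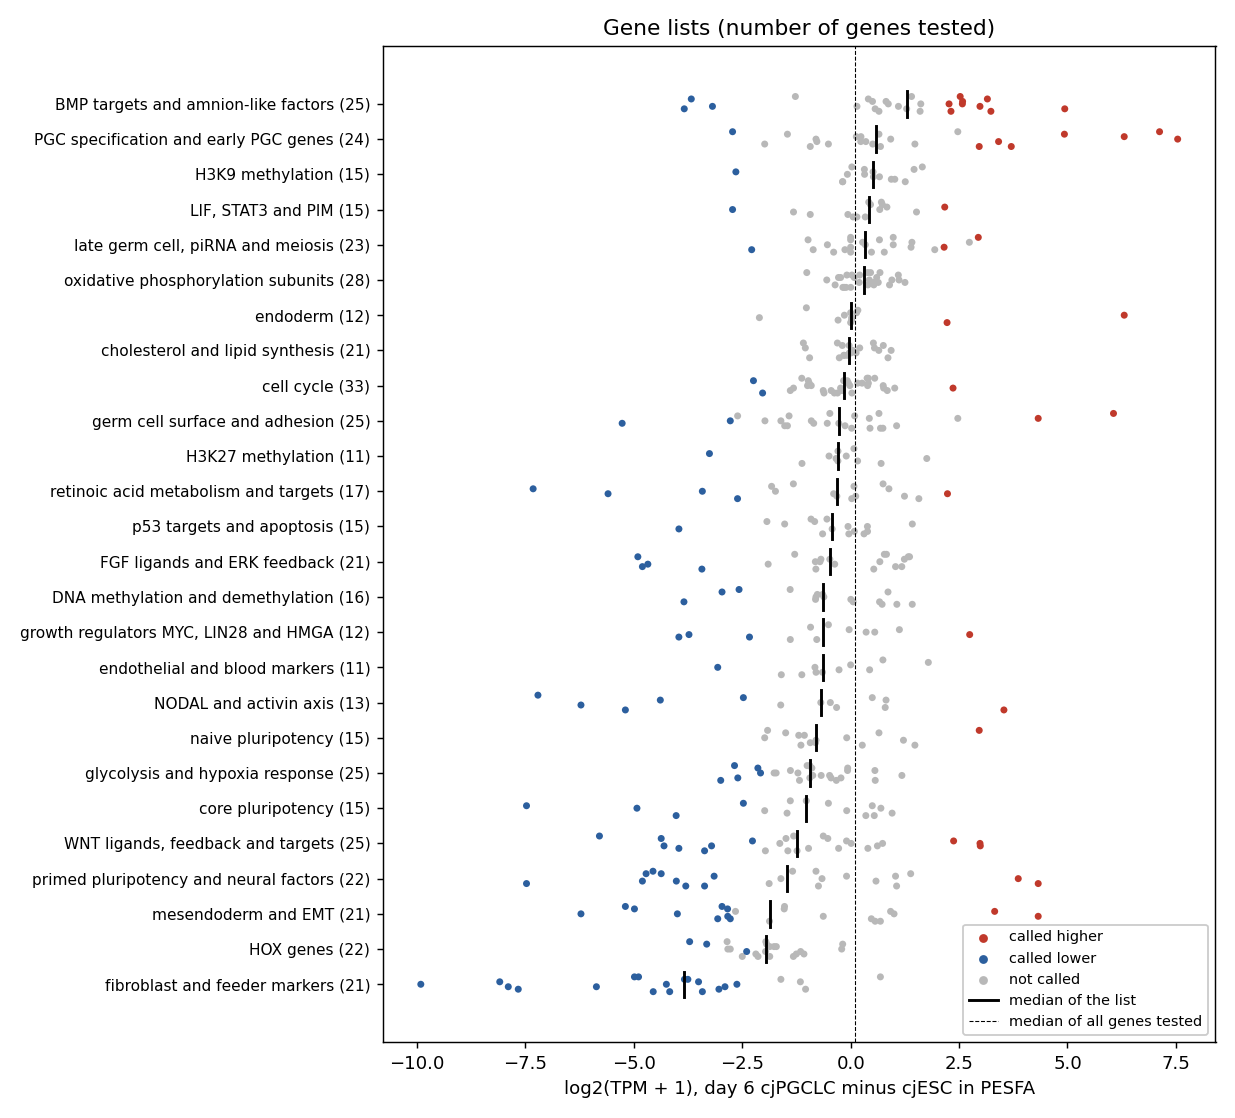
Difference of each tested member of the 26 lists between day 6 and cjESC libraries, ordered by the median of the list, from -3.83 for fibroblast and feeder markers to 1.29 for BMP targets and amnion-like factors.

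TBXT (brachyury), a T-box factor of mesendoderm that also takes part in germ cell specification, rose from 79.9 and 52.7 TPM to 607 and 714 TPM (difference 3.32, adjusted p = 5.79e-10). It was already at 435 and 404 TPM in DK20FA cjESCs and not a DEG from that start. The secreted inhibitor gene CER1 fell from 60.5 and 89.1 TPM to 0 in both libraries (difference -6.22, adjusted p = 6.23e-07), and the homeobox gene MIXL1 fell by 2.84. Over the mesendoderm and epithelial-mesenchymal transition list 21 genes had a median of -1.87, with 2 DEGs upward and 9 downward, and 3 rose and 12 fell (median -2.65, 3 rising and 14 falling from DK20FA cjESCs). Among mesenchymal genes VIM, an intermediate filament gene, fell from 1212 and 1817 TPM to 194 and 184 TPM (difference -2.97, adjusted p = 8.93e-16). SNAI2 fell by 2.83 and TWIST1 by 4.99, whereas CDH2 rose by 4.32 and SNAI1 did not pass (adjusted p = 0.0380). Among 12 endoderm genes SOX17 and HHEX were the only DEGs, both upward, and 2 fell. HHEX, a homeobox gene of the anterior endoderm, rose from 8.46 and 4.66 TPM to 40.3 and 27.3 TPM (difference 2.22, adjusted p = 8.77e-07). FOXA2, which defines definitive endoderm, was at 4.03 and 0.93 TPM before and 2.37 and 2.48 TPM after. The median of this list was 0.01, and -0.11 with median-ratio scaling. With DK20FA cjESCs as the start only SOX17 kept its call and 2 genes were DEGs downward.

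Single adhesion molecules changed in opposite directions. The epithelial cadherin gene CDH1 fell from 179 and 164 TPM to 26.9 and 21.7 TPM (difference -2.78, adjusted p = 4.06e-15). The neural cadherin gene CDH2 rose from 21.6 and 24.9 TPM to 476 and 492 TPM (difference 4.32, adjusted p = 8.02e-20). With the rise of CDH8, 2 of the 4 cadherin genes in the list of germ cell surface and adhesion molecules were thus gained, while CDH3 fell by 1.42. The list had 25 genes tested, 2 DEGs in each direction, 5 rising and 10 falling, and a median of -0.27. EPCAM, an epithelial adhesion molecule, fell from 1462 and 1304 TPM to 360.4 and 340.4 TPM (difference -1.98, adjusted p = 1.17e-16). The largest fall was that of CXCL12, the chemokine that guides migrating PGCs and is made by somatic cells, from 78.2 and 33.8 TPM to 0.70 and 0.09 TPM (difference -5.27, and -4.67 and -5.86 without cjESC replicates 1 and 2).

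Enzymes of DNA methylation diverged. DNMT3B, a methyltransferase that sets new marks, fell from 80.0 and 64.7 TPM to 4.21 and 3.96 TPM (difference -3.84, adjusted p = 5.51e-15). UHRF1, which brings DNMT1 to newly replicated DNA, fell from 94.9 and 105 TPM to 18.6 and 13.7 TPM (difference -2.57, adjusted p = 9.72e-17). DNMT1, the maintenance enzyme, rose from 23.5 and 16.4 TPM to 56.4 and 52.1 TPM (difference 1.42, adjusted p = 9.68e-09). So the enzyme and its recruiter moved in opposite directions. Of 16 genes of DNA methylation and demethylation 3 were DEGs, all downward, 4 rose and 7 fell, and the median was -0.63.

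The lists of H3K9 and H3K27 methylation genes each held 1 DEG, where 7.99% of all genes tested were DEGs. EHMT2 (G9a), which writes H3K9 dimethylation, was the only DEG of 15 H3K9 genes, from 26.8 and 21.0 TPM to 2.69 and 3.23 TPM (difference -2.65, adjusted p = 3.71e-11), while its partner EHMT1 was at 49.7 and 44.6 TPM and then at 44.2 and 45.1 TPM. The demethylase gene KDM3B rose from 110.3 and 85.1 TPM to 313 and 300.5 TPM (difference 1.65, adjusted p = 7.95e-10). In this list 5 genes rose and 1 fell, with a median of 0.52, and from DK20FA cjESCs, where EHMT2 was at 14.0 and 14.4 TPM, the list held no DEG. For H3K27 methylation 11 genes had a median of -0.29 (-0.53 from DK20FA cjESCs), 2 rose and 3 fell (2 and 5), and the 1 DEG was JARID2, a Polycomb cofactor, from 43.9 and 54.7 TPM to 4.69 and 3.81 TPM (difference -3.26, adjusted p = 2.23e-14). EPOP, another accessory protein of this complex, rose by 1.76.

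Of 23 late germ cell, piRNA and meiosis genes tested 15 did not pass an adjusted p of 0.01, where 44.9% of all genes tested passed. DDX4, the vasa helicase of gonadal germ cells, was listed at 0 in all 4 libraries, and DAZL was at 0.33 and 1.49 TPM before and at 0 in both after (adjusted p = 0.0273). In the list of late germ cell, piRNA and meiosis genes 23 were tested, 2 were DEGs upward and 1 downward, 7 rose and 1 fell (6 and 6 with DK20FA cjESCs as the start), the median was 0.34 (0.11 from DK20FA cjESCs), and 11 members were at 0 in all 4 libraries. The largest rise was in TDRD7, a tudor protein of germ granules, from 5.68 and 6.78 TPM to 51.5 and 57.5 TPM (difference 2.94, adjusted p = 1.56e-15). DMRT1, a factor of the germ line and testis, was listed at 0 in cjESCs and at 5.40 and 5.95 TPM at day 6 (adjusted p = 4.64e-12), and TEX11, a meiosis gene, fell by 2.28.

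The 4 largest losses were all in the list of fibroblast and feeder markers. S100A6, a calcium-binding protein abundant in fibroblasts, was at 1309 and 1846 TPM in cjESCs and 0.74 and 0.50 TPM at day 6 (difference -9.91, adjusted p = 3.85e-14). The fibrillar collagen gene COL1A1 fell from 1598 and 878 TPM to 3.64 and 4.35 TPM (difference -7.89, adjusted p = 3.48e-19), and COL3A1 from 587 and 310.3 TPM to 0.25 and 0.97 TPM (difference -8.09, adjusted p = 5.10e-16). In each case the cjESC libraries had high levels and both day 6 libraries lay close to 0. Next came BGN, a matrix proteoglycan (difference -7.66), S100G (-7.65), the neurofilament gene NEFM (-7.43), IGFBP7 (-7.40) and FOXJ1, the master regulator of motile cilia (-7.40). The osteopontin gene SPP1 (-7.05, -7.80 to -6.30), the YAP target CCN1 (-6.87, -7.47 to -6.28), the muscle actin gene ACTA1 (-6.74, -7.44 to -6.04) and CCN2 (-6.58, -7.63 to -5.54) followed, each with its range when cjESC replicate 1 or 2 was left out. By level, the largest stores lost, chosen after their values were seen, were TMSB10, which binds actin monomers, from 3798 and 3513 TPM to 408 and 385 TPM (difference -3.20, adjusted p = 2.53e-18) and KRT18, a simple epithelial keratin, from 2609 and 1986 TPM to 499 and 466 TPM (difference -2.24, adjusted p = 7.05e-16).

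The whole list of fibroblast and feeder markers moved with these losses. Of 21 genes tested 17 were DEGs, all downward, 20 fell, the median was -3.83, and only PDGFRA, at 39.0 and 31.4 TPM before and 69.7 and 46.4 TPM after, did not pass. Its 22 genes in the table summed to 8108 and 6913 TPM in the cjESC libraries and to 912 and 895 TPM at day 6. The matrix protein gene SPARC was the most abundant in cjESC replicate 1 and at day 6, and S100A6 in cjESC replicate 2. TWIST1 was at 0 in both day 6 libraries. The sum was 5819 and 10289 TPM in pre-treated cells, 1497 and 1249 TPM after 12 h of induction, and 1993 and 2511 TPM in cjESCs in DK20FA, which were sorted the same way. COL1A1 alone was at 41.8 and 83.6 TPM in those DK20FA cells, so the cjESC libraries of the 2 media differed in this list. With the DK20FA cells as the start 10 of its genes were DEGs downward with a median of -2.14, and 308 of the 551 lost and 237 of the 344 gained genes kept their call. The part of these markers in the losses was not tested.

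HOX genes, which mark position along the body axis, had a median of -1.95 over 22 genes, with 3 DEGs downward and 20 falling under TPM and under median-ratio scaling, HOXA4 and HOXA13 being the exceptions; with quantile normalization HOXB2 was a further exception. With a pseudocount of 0.1 none of the 3 met the DEG rule, while 20 still fell and the median became -4.49. HOXA5 fell most, from 15.7 and 9.29 TPM to 0 in both day 6 libraries (difference -3.71, adjusted p = 6.79e-13), then HOXC6 (difference -3.32, and -4.13 and -2.51 without cjESC replicates 2 and 1). Their 25 genes in the table summed to 124 and 63.6 TPM in cjESCs and to 1.93 and 3.89 TPM at day 6. The HOX sum was 44.7 and 80.0 TPM in pre-treated cells and 16.0 and 12.8 TPM at 12 h, beside the fibroblast sums given above, and the part of those markers in this result was not tested either. From DK20FA cjESCs only 5 HOX genes fell, with a median of -0.56. Endothelial and blood markers were low, with sums of 123 and 129 TPM in cjESCs and 78.1 and 67.7 TPM at day 6. Of their 11 genes tested 1 rose and 2 fell, with a median of -0.65, and the 1 DEG was the VEGF receptor gene KDR, which fell by 3.07. With DK20FA cjESCs as the start 4 rose and 3 fell, with a median of 0.42, and 2 were DEGs upward and 1 downward.

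Of the growth regulators, MYC, a driver of proliferation, fell from 265 and 225 TPM to 12.3 and 17.6 TPM (difference -3.96, adjusted p = 3.87e-22), while its relative MYCL rose from 4.97 and 3.36 TPM to 36.2 and 30.5 TPM (difference 2.74, adjusted p = 2.46e-10). The list of MYC, LIN28 and HMGA growth regulators had 12 genes, 1 DEG upward and 3 downward, 3 rising and 6 falling, and a median of -0.65, and from DK20FA cjESCs, where MYCL was at 23.4 and 41.3 TPM, none was a DEG upward. Of 25 glycolysis and hypoxia genes tested 5 were DEGs downward, 16 fell and none rose, with a median of -0.94. From DK20FA cjESCs 3 were DEGs downward, 13 fell and 2 rose (median -0.67), and without the reconstituted ovary libraries 1 rose. The neuronal enolase gene ENO2 fell from 111 and 55.7 TPM to 11.1 and 7.21 TPM (difference -3.00, adjusted p = 3.03e-08), and PGK1, a core glycolytic enzyme gene, from 1190.1 and 1139 TPM to 275 and 253 TPM (difference -2.14, adjusted p = 6.51e-19). Of 28 subunits of oxidative phosphorylation none was a DEG, 13 rose and 3 fell, and the median of 0.30 became 0.07 with median-ratio scaling, with 8 rising and 6 falling, and 0.20 from DK20FA cjESCs, with 6 rising and 2 falling. Within complex II SDHA rose by 1.12 and SDHD fell by 1.01. The 21 cholesterol and lipid genes held no DEG, with 3 rising, 2 falling and a median of -0.03, against 1 rising, 5 falling and -0.25 with median-ratio scaling, and 2 rising, 8 falling and -0.28 from DK20FA cjESCs. SREBF2, their transcription factor, fell by 1.09.

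Cell cycle genes had a median of -0.16 over 33 genes, with 1 DEG upward and 2 downward, and 5 rose and 10 fell. Among all genes tested 3.07% were DEGs upward and 4.92% downward, and 24.9% rose and 20.0% fell. From DK20FA cjESCs 3 rose and 19 fell, with a median of -0.54. CDKN1C (p57), an inhibitor of cyclin-dependent kinases, rose from 54.6 and 41.8 TPM to 223 and 279 TPM (difference 2.36, adjusted p = 1.31e-08). The G1 cyclin genes CCND2 and CCNE1 fell by 2.24 and 2.03, the latter from 146 and 121 TPM to 31.0 and 32.7 TPM. Mitotic CCNB1 was at 326 and 256 TPM and then 298 and 272 TPM. Of 15 p53 targets and apoptosis genes 1 was a DEG downward, 2 rose and 5 fell, with a median of -0.43 (2 and 7 with a median of -0.73 from DK20FA cjESCs). That gene was PMAIP1 (NOXA), which promotes cell death, from 321 and 336 TPM to 19.3 and 21.1 TPM (difference -3.96, adjusted p = 1.79e-18), and SESN2, a stress-induced gene, rose by 1.42.

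Levels along the route show when the genes gained and lost changed. The genes gained had a median log2(TPM + 1) of 2.24 in cjESCs, 2.44 in pre-treated cells, 2.65, 2.88 and 3.12 at 12, 24 and 48 h, 4.98 in the sorted cells of 96 h and 5.14 at day 6. For the genes lost the medians were 4.91, 4.78, 4.04, 3.86, 3.66, 2.02 and 1.44. In both sets the largest step fell between 48 and 96 h, where sorting for tdTomato(+) began, so time and sorting cannot be told apart there. NANOS3 was at 15.8 and 10.2 TPM at 48 h and 146 and 225 TPM at 96 h, and SOX2 at 41.4 and 68.4 TPM and then at 1.21 and 0 TPM. MSX2 was early, at 253 and 167 TPM by 12 h, whereas CDH2 first dipped to 1.62 and 1.84 TPM at 24 h and stood at 369.9 and 339.8 TPM at 96 h. MYC held at 252 and 295 TPM at 48 h before 15.9 and 14.9 TPM at 96 h. Against the pre-treated cells day 6 gave 807 DEGs (7.21%), 304 (2.72%) higher and 503 (4.49%) lower, and 96 h against cjESCs gave 736 (6.57%), 261 (2.33%) higher and 475 (4.24%) lower. Without the fold threshold the shares of genes changed were 42.1% (22.4% higher and 19.8% lower) against pre-treated cells and 43.4% (25.5% higher and 17.9% lower) at 96 h. These comparisons share libraries with that of day 6 and cjESCs.

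**Figure D4:**
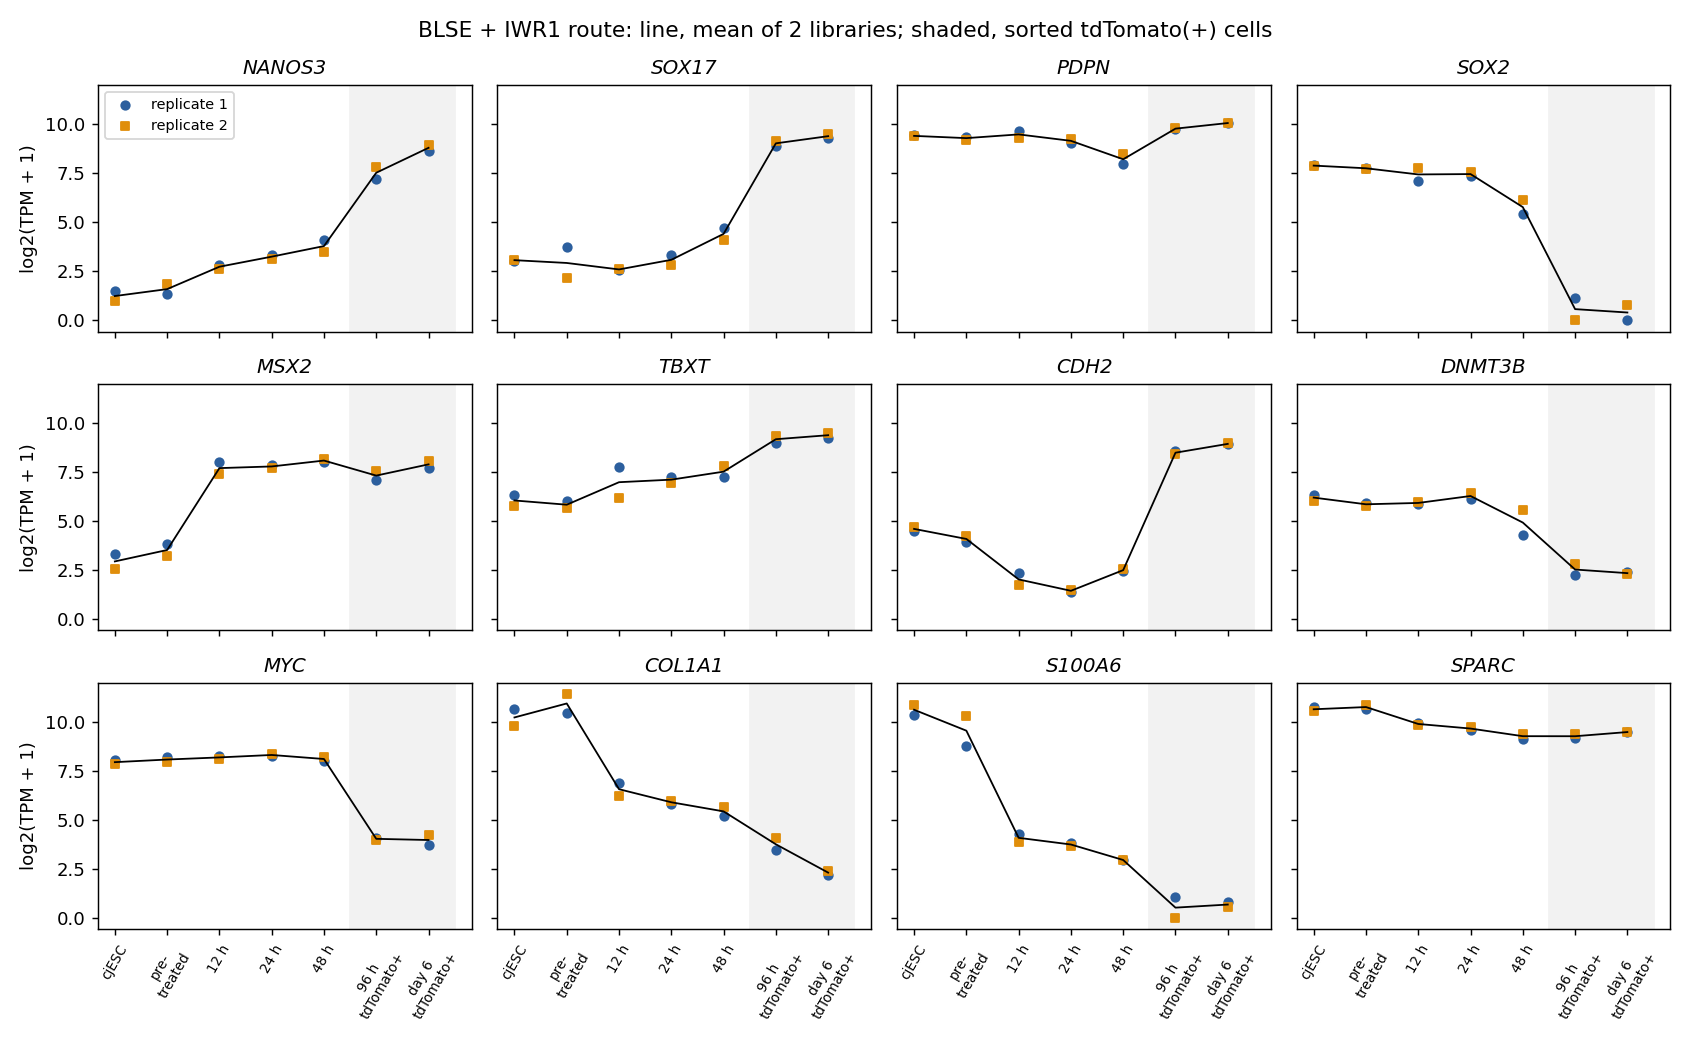
Level of 12 genes in each library from cjESCs to day 6. MSX2 reached 253 and 167 TPM by 12 h, whereas SOX2 was still at 41.4 and 68.4 TPM at 48 h.

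After day 6, in the reconstituted ovaries, the median of the genes gained went to 4.86, 4.52 and 4.19 at days 20, 40 and 70, and that of the genes lost to 1.16, 1.07 and 0.911. The genes gained were picked for their rise at day 6, which favours lower levels at other times. NANOS3 was at 127 and 169 TPM on day 20 and at 110.4 and 99.3 TPM on day 70. CDH8 was at 30.7 and 42.5 TPM then and at 8.97 and 8.58 TPM on day 70, and TBXT went from 298 and 354 TPM to 119 and 124 TPM over the same span. At both times these genes were below their day 6 levels.

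A comparison with no library in common used the SOX17 route, 96 h with SOX17 switched on in BLSE against cjESCs in DK20FA, with 754 DEGs (6.73%), 374 (3.34%) higher and 380 (3.39%) lower, and 43.2% of genes changed without the fold threshold. Of the 344 genes gained at day 6, 205 were gained there too (59.6% of these and 54.8% of the other list) and none was lost. These counts include SOX17, PRDM1 and TFAP2C, whose transgenes may add reads on the SOX17 route. Of the 551 genes lost, 237 were lost there too (43.0% and 62.4%) and 6 were gained. The change itself differed between the routes, more than 4-fold at an adjusted p under 0.01, for 22 of the genes gained and 173 of the genes lost, beside 344 (3.07%) of all genes, 60 (0.536%) higher and 284 (2.54%) lower on the day 6 route. At an adjusted p under 0.01 alone these shares were 3.95% and 7.66%. The genes gained and lost were picked for their change on the day 6 route, which favours differences toward that route. CDH8 rose by 6.06 on both routes, HHIP by 5.39 and 6.25, and NANOS3 by 7.54 and 7.34. COL6A6 rose more on the day 6 route (difference between routes 3.50, adjusted p = 4.08e-09). Line, medium, time, pre-treatment, IWR1 and the dexamethasone that switched SOX17 on all differ between the routes. Their parts cannot be told apart.

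Cells left in BLSE alone for 96 h, unsorted, gave 685 DEGs against DK20FA cjESCs (6.12%), 316 (2.82%) higher and 369 (3.30%) lower, and 29.5% of genes changed without the fold threshold. Only 30 of the 344 genes gained at day 6 were gained there (8.72% of these and 9.49% of the other list), 17 were lost, and of the 551 genes lost 122 were lost (22.1% and 33.1%) and 53 gained. The change differed between the 2 comparisons for 215 of the genes gained and 314 of the genes lost, beside 1190 (10.6%) of all genes, 630 (5.63%) of them lower on the day 6 route. Both sets were picked for their day 6 change, which favours differences toward the day 6 route. PDPN stood at 9.24 and 9.40 TPM in the BLSE cells, and its change differed by 6.32 (adjusted p = 4.70e-25), far more than its rise of 0.65 from cjESCs. POU5F1 differed by 5.66 (adjusted p = 1.22e-27) and NANOG by 8.34 (adjusted p = 4.55e-25). SOX2 fell by 7.47 at day 6 and by 6.30 in BLSE cells, and this difference did not pass (adjusted p = 0.0152). The loss of SOX2 was thus common to both, while PDPN, POU5F1 and NANOG separated them. Medium, line, sorting, time, the pre-treatment with IM12 and activin A, and IWR1 all differ between these cells and the day 6 cells. Their parts cannot be told apart.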

How the data were processed

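Per the labels, RNA-seq was poly(A)-selected and single-end, and the authors mapped reads with STAR to the marmoset genome, kept genes with a partner in human, and deposited RSEM values as TPM for 14812 genes in 54 libraries of 27 conditions. Depth is not given by TPM, so no counting precision is stated. The 4 libraries summed to 804627, 790300 (cjESC), 831274 and 830208 TPM (day 6) over these genes; replicates correlated at 0.983 and 0.992. The test took in each gene that reached a log2(TPM + 1) of 1.5 anywhere (11197). limma 3.58.1 in R 4.3.3 fitted a mean per condition to log2(TPM + 1) over all libraries (27 residual degrees of freedom, intensity trend, 2-sided, Benjamini-Hochberg), because TPM are not counts. The code was tested on simulated data. An exact permutation of 2 against 2 libraries cannot go below p = 0.333.

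Named genes were the 4 markers, the 15 DEGs with the largest rise and the 15 with the largest fall that had a symbol other than a locus number, genes named in the study, and the list members with the largest rise and fall; other genes were chosen after their values were seen. Members and the 26 lists were chosen with earlier results of these data known. The lists were PGC specification, core, naive and primed pluripotency, mesendoderm, endoderm, BMP, WNT, NODAL, FGF, LIF, retinoic acid, DNA, H3K9 and H3K27 methylation, late germ cell, surface, fibroblast, endothelial, HOX, cell cycle, p53, glycolysis, oxidative phosphorylation, cholesterol and growth regulator genes. Alternatives tried were a pseudocount of 0.1, no filter, only the 4 libraries, no reconstituted ovary libraries, a replicate block, median-ratio and quantile scaling, no intensity trend, each library left out, DK20FA cjESCs as the start, a 2-fold threshold and no threshold on the mean. Genes that the transgenes encode are in the overlap counts, and no value of theirs on the SOX17 route is printed.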

Additional observations from a re-analysis of the deposited data

Results flagged for a closer look

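For 12 of the 30 genes with the largest rises and falls, the change from cjESCs differed more than 4-fold, at an adjusted p under 0.01, between the day 6 route and the SOX17 route, which started from the transgene-carrying cjESCs in DK20FA. Among all genes tested 344 (3.07%) differed in this way, and the 30 genes were picked for their change on the day 6 route, which favours differences toward that route. The difference between routes (day 6 route minus SOX17 route) was 3.50 for COL6A6 (adjusted p = 4.08e-09). For the other genes the day 6 route showed the larger fall. S100A6 differed by -7.66 (adjusted p = 6.27e-07), IGFBP7 by -6.39 (adjusted p = 1.48e-08), BGN by -6.16 (adjusted p = 8.25e-11) and COL1A1 by -5.50 (adjusted p = 1.26e-09). COL3A1 differed by -5.04 (adjusted p = 1.66e-06), INHBA by -4.99 (adjusted p = 1.64e-05), CCN1 by -4.93 (adjusted p = 1.11e-08) and SPP1 by -4.26 (adjusted p = 5.65e-06). Smaller differences were those of CCN2 at -3.64 (adjusted p = 3.33e-06), CYP26A1 at -2.73 (adjusted p = 3.65e-04) and ACTA1 at -2.37 (adjusted p = 0.00438). S100A6 stood at 5.22 and 28.2 TPM in the cjESCs in DK20FA and at 1309 and 1846 TPM in those in PESFA. Line, medium, time and treatments differ between the routes and cannot be told apart.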

How the results depend on the processing

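The count of 895 DEGs ranged from 773 (306 higher and 467 lower, only the 4 libraries) to 924 (median-ratio scaling), and from 883 to 972 with 1 library left out. It was 826 with a pseudocount of 0.1, 919 with quantile normalization, 814 from DK20FA cjESCs, and 1030 (375 higher and 655 lower) with no threshold on the mean level. A 2-fold threshold gave 2607 DEGs (1379 higher and 1228 lower). With only the 4 libraries 2374 genes passed an adjusted p of 0.01 instead of 5030 (1213 higher and 1161 lower), in a fit with fewer samples. Same-numbered replicates shared only a number (r of their deviations 0.0314), and the replicate block gave 895 DEGs, 344 higher and 551 lower. HAND1, not called in the fit above, reversed to -2.70 from DK20FA cjESCs (adjusted p = 4.75e-09), and the cause was not tested. NANOG lost its call under 10 alternatives, with adjusted p up to 0.162. With 2 libraries a group, the spread rests on all conditions. The cjESC libraries carried fibroblast markers at levels other cjESCs of the study did not, and losses of such genes should be read beside those sums. Promoter motifs were not run.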
